A study of Mus musculus with 2 samples.

Results

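The tumour necrosis factor (TNF) superfamily of ligands and receptors was examined in mouse cultures labelled as T helper 9 (TH9) cells. Members were the genes whose RefSeq symbol names them as a numbered TNF superfamily ligand or receptor, together with Tnf, Lta, Ltb, Ltbr, Cd40, Cd40lg, Fas, Fasl, Cd27, Cd70 and Eda2r. The gene table held 43 such genes, of which 41 had a probe on the array, 16 of them ligands and 25 receptors, among 20651 genes measured in all. Tnfsf13, which encodes the ligand APRIL, and the antisense RNA Tnfsf13os had no matched probe and were not analysed here.

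Ligands of this superfamily are mostly trimeric proteins of the cell surface that can also be shed, and their receptors fall into those with a cytoplasmic death domain, those that bind TRAF adaptors, and decoys that do neither. Through TRAF adaptors the receptors reach the NF-kB and MAP kinase pathways, and through death domains they can start caspase-driven cell death. On T cells, receptors such as OX40, GITR, 4-1BB and DR3 act as costimulators after activation, and OX40, GITR and DR3 have each been reported to favour production of IL-9, the cytokine that names TH9 cells.

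The knockout group carried floxed Sirt1 alleles and a Cre recombinase under Cd4 control, which acts in the T cell lineage, and the other group is labelled wild-type. Both started from naive CD4 T cells sorted by CD62L and CD44 from spleen and lymph nodes. Both were activated with anti-CD3 and anti-CD28 (2 µg/ml each) and 100 U/ml human IL-2, and were polarised for 5 days, per the sample descriptions, with IL-4 (10 ng/ml) and TGFβ1 (2 ng/ml). Each genotype had 1 array (1-colour, Cy3), so no difference below has a replicate check, a test between genotypes could not be made, and the labels do not say how many mice stand behind an array.

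The targeted gene gave nearly equal signals, with Sirt1 at 2920 on the knockout array and 3240 on the wild-type array, which is -0.08 ± 0.20 on the log2 scale (knockout minus wild-type, each array scaled to its 75th percentile). The error here and below is the scanner software's error of the 2 signals, not a spread between samples. Nothing in the labels says whether the Sirt1 probe lies in the deleted exons, so it does not check the label. Il9 had dim signals, neither of them well above background, at 7.36 on the knockout array and 5.48 on the wild-type array. All 7 measured T cell markers were well above background, 3 above 0 and 4 below with a median of -0.0031, which turned to 0.25 with normexp. Among them Cd4 had 2500 on the knockout array and 2870 on the wild-type array, and Cd3e was 2.18-fold lower on the knockout array, the one marker at least 2-fold apart. With normexp Cd3e came to -0.86 and so under 2-fold. All measured markers of B cells, plasma cells, CD8 and NK cells, myeloid cells and stroma were also well above background on both arrays. In such bulk RNA fewer cells of a type and less RNA per cell cannot be told apart. The knockout array had 65.3% of its gene spots well above background and the wild-type array 57.1%, and the lowest such signal was 9.76 on the knockout array and 24.6 on the wild-type array.

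Of the 41 members, 35 were well above background on both arrays, 1 on the knockout array alone and 5 on neither, as the plot of signals by array shows. A member was called higher or lower when both signals were well above background and at least 2-fold apart. By this rule 3 members were higher on the knockout array, namely Ltbr, Tnfsf13b and Tnfsf15, and 0 were lower. Over all 12958 genes well above background on both arrays, 3.95% were at least 2-fold higher and 3.63% at least 2-fold lower. At least 2-fold apart either way were 7.59% of them. The 3 called members lay just past the threshold, at 1.01, 1.07 and 1.02 on the log2 scale. The nearest members under it were Tnfsf14 at 0.78, Tnfrsf11a at -0.77 and Tnfrsf13b at -0.77. The scaling mattered for the background: centring on the array median moved the median of all genes by 0.19 and gave 6.18% higher and 2.25% lower, against 1.59% higher and 9.1% lower with normexp, another background correction, while the same 3 members passed with centring. With normexp Ltbr alone passed as higher, and Tnfrsf13b, Tnfrsf21 and Tnfrsf22 passed as lower. These lower members lie in the dimmest quartile of genes by signal. There normexp put 32.9% of all genes at least 2-fold lower and 0.0% at least 2-fold higher.

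**Figure D1:**
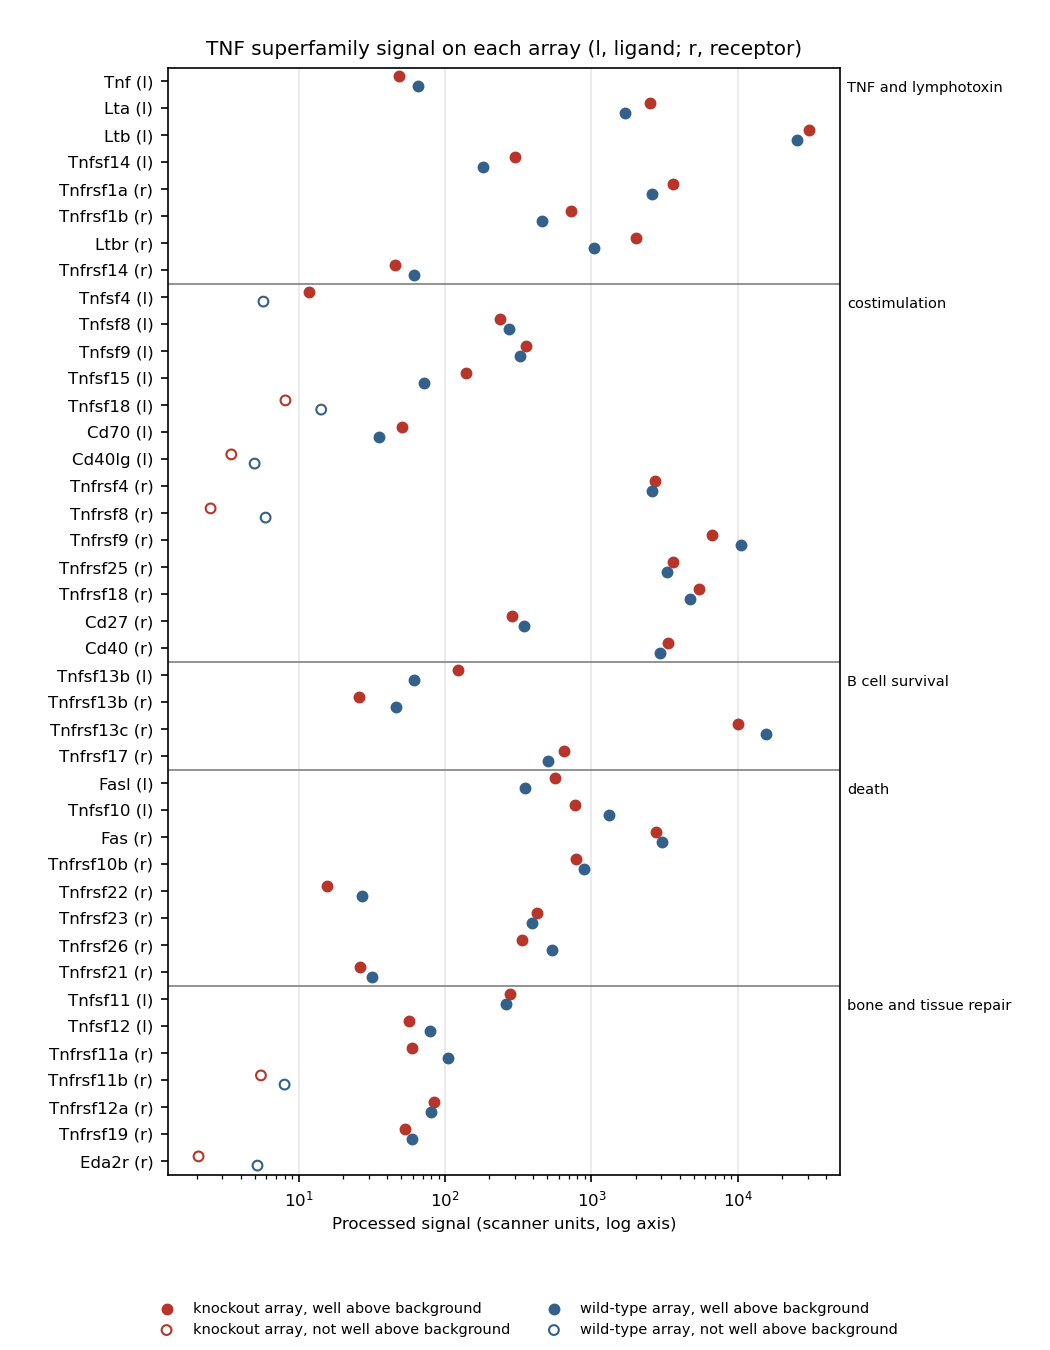
Processed signal of the 41 measured members on a log axis, with the knockout array in red and the wild-type array in blue, ordered by branch of the family. Filled points are well above background and open points are not; Cd40lg, Tnfrsf8, Tnfsf18, Tnfrsf11b and Eda2r are open on both arrays, and Tnfsf4 is open on the wild-type array.

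Members differed by small amounts in both directions. The 35 had a median difference of 0.14, against 0.00 for all genes, with 19 above 0 and 16 below (50.4% of all genes were above 0). Their SD of 0.55 was close to the 0.56 of all genes. Differences larger than the scanner error were seen in 14 members that were higher and 10 that were lower, and 11 lay within it. Of all genes 29.9% were higher and 30.6% lower by more than their error, and 39.4% lay within it. Ligands had a median of 0.34 over 13 genes, with 9 above 0, which turned to -0.12 with normexp. Receptors had a median of -0.08 over 22 genes, with 10 above 0, which turned to 0.10 with centring on the median and to 0.03 with quantile normalization. At 1.5-fold, 7 members were higher (11.0% of all genes) and 6 lower (12.0% of all genes).

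**Figure D2:**
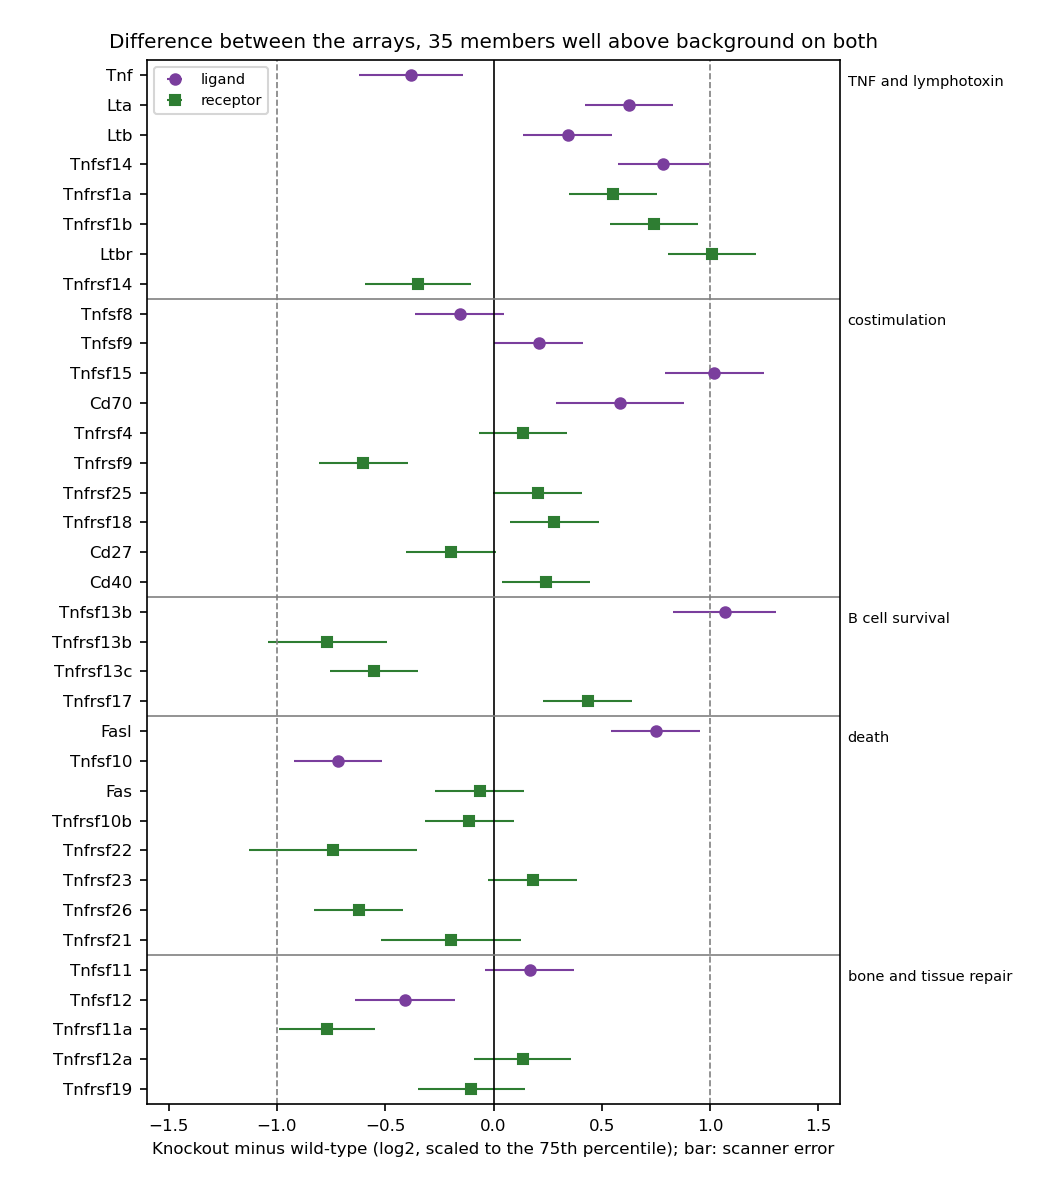
Difference in log2 signal, knockout minus wild-type, of the 35 members whose signals were both well above background, with the scanner error as bars and dashed lines at 2-fold, ligands as circles and receptors as squares. Ltbr, Tnfsf13b and Tnfsf15 lie at or just past the right-hand line, their error bars cross it, and no member reaches the left-hand line.

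The TNF and lymphotoxin branch was mostly higher on the knockout array. All 8 members were measured above background, 6 were higher and 2 lower, each by more than the scanner error, and the median was 0.59, beside 29.9% higher and 30.6% lower by more than the error and a median of 0.00 over all genes. That median lay between 0.48 and 0.78 over the alternatives, and all 8 kept their sign under every one. This branch shapes lymphoid tissue: lymphotoxin and LIGHT signal through the lymphotoxin beta receptor on stromal and myeloid cells, and TNF and soluble lymphotoxin share the TNF receptors.

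Ltbr, which encodes that receptor, had a signal of 2000 on the knockout array and 1040 on the wild-type array. The difference was 1.01 ± 0.20, or 2.01-fold, and ranged from 1.002 to 1.20 over the alternatives. Ltbr is known mainly from stromal, epithelial and myeloid cells rather than lymphocytes. Of 8 measured markers of macrophages and dendritic cells 6 were higher on the knockout array, with a median of 0.72, and with normexp 5 of 8 with a median of 0.25. Their summed signal was 161 times the 75th percentile signal on the knockout array and 155 on the wild-type array. Most of it came from Siglech, without which it was 31.5 and 17.3. All 8 were well above background on both arrays. Stromal and endothelial markers were higher in 4 of 6, with a median of 0.57 and sums of 15.9 and 10.8 on the knockout and wild-type arrays. The lower ones were the endothelial markers Pecam1 (-0.44) and Cdh5 (-0.04). The markers at least 2-fold higher were Adgre1 (1.23) and Mrc1 (1.39) of macrophages, and Col1a2 (1.28) and Pdgfrb (1.21) of stroma; Mrc1 came to 0.99 and Pdgfrb to 0.55 with normexp. The part of these cells in the Ltbr value was not tested.

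The ligands of this branch parted. Ltb, the membrane anchor of surface lymphotoxin, had a signal of 30900 on the knockout array and 25500 on the wild-type array, a difference of 0.34 ± 0.20, and 0.59 with normexp. Lta, the soluble lymphotoxin chain, was printed in 10 spots, which ran from 2440 to 2600 on the knockout array and from 1650 to 1750 on the wild-type array. Its difference was 0.63 ± 0.20, or 1.54-fold, and the spots of the arrays did not overlap. Tnf spots ran from 44.3 to 52.0 on the knockout array (10 spots) and from 59.5 to 70.8 on the wild-type array (9 spots kept), again without overlap but in the opposite direction. The Tnf difference was -0.38 ± 0.24, and -0.92 with normexp. Tnf was dim, and genes of its signal quartile had a median difference of -0.18, and of -0.86 with normexp. Tnfsf14, which encodes LIGHT, had a signal of 298 on the knockout array and 181 on the wild-type array, a difference of 0.78 ± 0.21, and 0.28 with normexp. Repeat spots show how well each array measured its own RNA: the SD over spots was 0.03 for Lta on either array, and 0.06 on the knockout array and 0.07 on the wild-type array for Tnf.

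**Figure D3:**
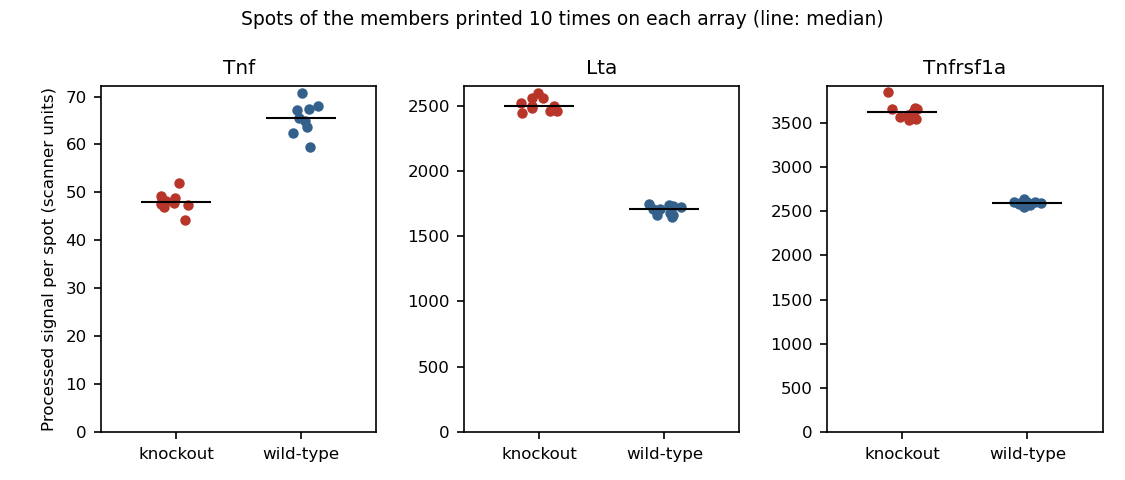
Processed signal of each spot of Tnf, Lta and Tnfrsf1a, the members printed 10 times, with the knockout array on the left and the wild-type array on the right of each panel and the median as a line. Spots of the arrays do not overlap for any of the 3 genes; Tnf is lower and Lta and Tnfrsf1a are higher on the knockout array. Spots of an array share its RNA and are not replicates of the genotype.

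Both TNF receptors were higher on the knockout array. Tnfrsf1a, the receptor with a death domain found on most cells, had spots from 3540 to 3850 on the knockout array and from 2550 to 2640 on the wild-type array, a difference of 0.55 ± 0.20. Its second, much dimmer probe gave 62.6 on the knockout array and 64.0 on the wild-type array, a difference of 0.03. Tnfrsf1b, the receptor enriched on lymphoid and myeloid cells and on regulatory T cells, had 729 on the knockout array and 456 on the wild-type array, or 1.67-fold higher. Tnfrsf14, the LIGHT receptor HVEM, was dim, at 45.7 on the knockout array and 60.9 on the wild-type array, a difference of -0.35 ± 0.25, and -0.93 with normexp. Genes of its signal quartile had a median of -0.86 with normexp.

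Promoter windows are shown for the 3 called members and for the neighbours Lta and Tnf, which went opposite ways. Each is the stretch of 250 bases before the gene's start in RefSeq, build GRCm38.p6, 5′ to 3′ on the gene's strand. The windows are chr6:125313886-125314135 (minus strand) for Ltbr, chr8:10006383-10006632 (plus) for Tnfsf13b, the later of its 2 RefSeq starts, chr4:63745060-63745309 (minus) for Tnfsf15, chr17:35205352-35205601 (minus) for Lta and chr17:35202008-35202257 (minus) for Tnf. Capitals mark matches, on either strand, to the AP-1 motif TGANTCA, the STAT6 motif TTCNNNNGAA, the TATA motif TATAAA and the kB consensus, the site of NF-kB.
Ltbr: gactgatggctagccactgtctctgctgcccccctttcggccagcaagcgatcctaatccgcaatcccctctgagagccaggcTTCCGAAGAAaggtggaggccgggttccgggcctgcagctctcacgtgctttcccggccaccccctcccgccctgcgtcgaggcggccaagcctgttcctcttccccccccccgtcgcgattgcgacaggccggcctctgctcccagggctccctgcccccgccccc
Tnfsf13b: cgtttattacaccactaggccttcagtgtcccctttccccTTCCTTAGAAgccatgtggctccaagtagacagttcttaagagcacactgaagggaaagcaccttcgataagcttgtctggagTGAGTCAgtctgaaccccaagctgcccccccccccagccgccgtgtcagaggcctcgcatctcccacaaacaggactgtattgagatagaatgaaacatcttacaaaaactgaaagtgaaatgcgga
Tnfsf15: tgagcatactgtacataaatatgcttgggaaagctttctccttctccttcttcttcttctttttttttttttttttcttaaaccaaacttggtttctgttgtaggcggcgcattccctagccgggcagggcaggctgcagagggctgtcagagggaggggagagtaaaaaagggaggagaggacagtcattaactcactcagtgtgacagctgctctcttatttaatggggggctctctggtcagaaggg
Lta: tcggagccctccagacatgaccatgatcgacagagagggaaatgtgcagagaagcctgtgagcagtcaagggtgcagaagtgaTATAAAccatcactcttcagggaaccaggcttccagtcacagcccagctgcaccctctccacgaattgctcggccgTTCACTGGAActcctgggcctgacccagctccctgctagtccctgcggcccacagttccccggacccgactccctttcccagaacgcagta
Tnf: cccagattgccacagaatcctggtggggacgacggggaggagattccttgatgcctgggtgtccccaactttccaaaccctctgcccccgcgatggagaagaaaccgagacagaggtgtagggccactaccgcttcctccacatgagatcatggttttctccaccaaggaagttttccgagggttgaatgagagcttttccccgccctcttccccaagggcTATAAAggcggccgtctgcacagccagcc

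In these letters Tnf held a TATA match 29 bases before its start and Lta one at 167 bases, beside a STAT6 match at 91. Ltbr held a STAT6 match at 167 bases. Tnfsf13b held an AP-1 match at 127 bases and a STAT6 match at 210, and Tnfsf15 held none of the 4 motifs. No marked matches overlapped. The kB consensus was in none of the 5 windows. It was in 4 of the 36 windows of the 32 members with an entry (11.1%), against 7.25% of all 32851 windows of this length. AP-1 was in 16.7% of the members' windows and 6.75% of all, STAT6 in 11.1% and 5.85%, and TATA in 19.4% and 12.4%. The 4 windows with STAT6 belong to 3 genes, since both windows of Tnfsf13b overlap and hold the same site. A match describes the letters only.

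OX40, GITR and DR3, costimulatory receptors of T cells, were bright and close between the arrays in the processed signal, and 4-1BB was lower on the knockout array by its brighter probe. Tnfrsf4, which encodes OX40, had signals of 2720 on the knockout array and 2590 on the wild-type array, a difference of 0.14 ± 0.20. Tnfrsf18, which encodes GITR, had 5470 on the knockout array and 4710 on the wild-type array, a difference of 0.28 ± 0.20. Tnfrsf25, which encodes DR3, had 3600 on the knockout array and 3270 on the wild-type array, a difference of 0.20 ± 0.20. All 3 receptors named with IL-9 above were thus well above background on both arrays and within 1.5-fold in the processed signal. For Tnfrsf25 other values departed: its background-subtracted signal was 1547 on the knockout array and 3314 on the wild-type array. The authors' deposited table gave a difference of -8.83 for it. Tnfrsf9, the activation-induced receptor 4-1BB, had 6680 on the knockout array and 10600 on the wild-type array, or 1.52-fold lower. Its other probe went the opposite way, at 292 on the knockout array and 252 on the wild-type array, a difference of 0.28, and the mean over both probes was -0.16. Gaps between probes of a gene were common: the median gap was 0.29 over the 2442 genes with exactly 2 probes well above background on both arrays, and in 37.1% of them the probes differed in sign.

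Other costimulatory receptors were close between the arrays or dim. Cd27, lost by many differentiated T cells, had 287 on the knockout array and 344 on the wild-type array, a difference of -0.20 ± 0.21, while its dimmer probe gave -0.61. Cd40, the receptor of B cells and antigen-presenting cells, had 3310 on the knockout array and 2930 on the wild-type array, a difference of 0.24 ± 0.20. Tnfrsf8, which encodes the activation marker CD30, was not well above background, at 2.49 on the knockout array and 5.92 on the wild-type array. Cd40lg, the helper ligand that activated CD4 T cells carry, was not well above background either, at 3.45 on the knockout array and 4.98 on the wild-type array.

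Ligands of this branch, most of them made by antigen-presenting cells, were dimmer. Tnfsf15, which encodes the DR3 ligand TL1A made largely by myeloid and endothelial cells, had 138 on the knockout array and 71.2 on the wild-type array, or 2.03-fold higher (1.02 ± 0.23). With normexp the difference turned to -0.12. That correction lowered dim genes as a group. The median difference in signal quartile 1, which holds geometric mean signals of 16.6 to 120.0, went from -0.18 to -0.86. Tnfsf15 lay above 97.0% of the genes of that quartile with normexp and above 94.1% in the processed signal. Normexp differences rose with signal, with medians of -0.86, -0.22, 0.18 and 0.32 in signal quartiles 1 to 4. A rank within the quartile can thus reflect signal level, and it is no check of the call. Within that quartile 6.27% of genes were at least 2-fold higher and 9.04% at least 2-fold lower in the processed signal. The median pixel intensities of Tnfsf15 were 177 on the knockout array and 122 on the wild-type array, over a local background of 18 on both.

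Cd70, the CD27 ligand, had 50.3 on the knockout array and 35.1 on the wild-type array, a difference of 0.58 ± 0.30 that turned to -0.71 with normexp. Tnfsf9, the 4-1BB ligand, had 358 on the knockout array and 324 on the wild-type array, a difference of 0.21. Tnfsf8, the CD30 ligand, which T cells also make, had 236 on the knockout array and 275 on the wild-type array, a difference of -0.16, within its error of 0.21. Tnfsf4, the OX40 ligand, was well above background on the knockout array alone, at 11.8 against 5.72 on the wild-type array. No fold is given for Tnfsf4, since its bright signal lies under the lowest signal well above background on the wild-type array. Tnfsf18, the GITR ligand, was not well above background, at 8.09 on the knockout array and 14.2 on the wild-type array.

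In the B cell survival branch the ligand Tnfsf13b and the receptor Tnfrsf17 were above 0 and the receptors Tnfrsf13b and Tnfrsf13c below. Tnfsf13b encodes BAFF, the survival factor of mature B cells made by myeloid and stromal cells. It had a signal of 122 on the knockout array and 60.9 on the wild-type array, or 2.10-fold higher (1.07 ± 0.24), the highest difference among the 35. With normexp it turned to -0.17. It lay above 96.3% of the genes of its signal quartile with normexp and above 94.9% in the processed signal. As for Tnfsf15, such a rank can reflect signal level and is no check of the call. The median pixel intensities of Tnfsf13b were 162 on the knockout array and 104 on the wild-type array, over local backgrounds of 22 on the knockout array and 19 on the wild-type array.

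Tnfrsf13c, the main BAFF receptor and a B cell gene, had 10100 on the knockout array and 15500 on the wild-type array, or 1.47-fold lower (-0.55 ± 0.20), and its dimmer probe gave -0.83; with normexp the difference was -0.23. Tnfrsf13b, the BAFF and APRIL receptor TACI, had 25.9 on the knockout array and 46.1 on the wild-type array, or 1.70-fold lower. With normexp Tnfrsf13b passed 2-fold, at -1.18, as 32.9% of the genes of its signal quartile did in that direction. Tnfrsf17, the plasma cell receptor BCMA, went the opposite way, with 647 on the knockout array and 501 on the wild-type array (0.43 ± 0.20).

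Markers of B cells and plasma cells are given here for comparison with this branch. B cell markers were lower on the knockout array in 7 of 8, with a median of -0.32 and sums of 171 times the 75th percentile signal on the knockout array and 199 on the wild-type array. Cd79a (-1.18) and Blk (-1.41) were the B cell markers at least 2-fold lower, Cd79a reaching -0.997 with centring on the median. Plasma cell markers had a median of -0.16, with 2 of 5 higher, and sums of 168 and 178 on the knockout and wild-type arrays. Xbp1 (-0.37) and Sdc1 (-0.32) were furthest apart among them, at -0.04 and -0.89 with normexp, and Sdc1 reached 19.8 in the authors' deposited table. The plasma cell median turned to 0.10 with normexp and was above 0 also with centring on the median. In that table the median was above 0 too, but there Sdc1 stood at a log2 difference of 19.8, against -0.32 in the processed signal. All markers of both lists were well above background on both arrays. The part of these cells, and of the myeloid cells given above, in the values of BAFF and its receptors was not tested.

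In the death branch the ligands went opposite ways. Fasl, the Fas ligand of activated T cells and killer cells, had 562 on the knockout array and 350 on the wild-type array, or 1.68-fold higher (0.75 ± 0.21). Of the CD8 and NK cell markers 7 of 8 were higher too, with a median of 0.57. Their sums were 67.5 on the knockout array and 29.6 on the wild-type array, and all 8 were well above background on both. Klra1, an NK cell receptor gene, was the one at least 2-fold higher (1.56), and without it the sums were 19.96 on the knockout array and 13.5 on the wild-type array. With normexp 5 of the 8 were higher, with a median of 0.46. Their part in the Fasl value was not tested. Tnfsf10, which encodes TRAIL, had 767 on the knockout array and 1320 on the wild-type array, or 1.65-fold lower (-0.72 ± 0.20), and stayed between -0.73 and -0.51 over the alternatives.

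Death receptors stayed close. Fas had 2780 on the knockout array and 3040 on the wild-type array, a difference of -0.06 ± 0.20. Tnfrsf10b, the TRAIL death receptor of the mouse, had 786 on the knockout array and 888 on the wild-type array, a difference of -0.11 ± 0.20. Tnfrsf21, which encodes DR6, was dim, at 26.2 on the knockout array and 31.4 on the wild-type array, a difference of -0.20 ± 0.32. It passed 2-fold with normexp, at -1.04, as 32.9% of the genes of its signal quartile did in that direction.

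The decoy TRAIL receptors of the mouse and their neighbour Tnfrsf26 gave mixed values. Tnfrsf23 had 425 on the knockout array and 392 on the wild-type array, a difference of 0.18. Tnfrsf26, for which no function is given here, had 336 on the knockout array and 541 on the wild-type array, or 1.54-fold lower. Tnfrsf22 had 15.5 on the knockout array and 27.1 on the wild-type array, a difference of -0.74 ± 0.39, and -1.22 with normexp. Its other probe gave 15.4 on the knockout array and 6.96, not well above background, on the wild-type array, so its direction is not settled.

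Members known from bone and tissue repair were dim, apart from Tnfsf11. Tnfsf11, the osteoclast factor RANKL that T cells also make, had 279 on the knockout array and 260 on the wild-type array, a difference of 0.17 ± 0.21. Its receptor gene Tnfrsf11a, which encodes RANK, had 58.9 on the knockout array and 105 on the wild-type array, or 1.70-fold lower (-0.77 ± 0.22). Tnfrsf11b, the soluble RANKL decoy osteoprotegerin, was not well above background, at 5.5 on the knockout array and 7.98 on the wild-type array. Tnfsf12, which encodes TWEAK, had 57.0 on the knockout array and 79.1 on the wild-type array, a difference of -0.41. Its dimmer probe went the opposite way, at 25.3 on the knockout array and 22.4, not well above background, on the wild-type array. Its receptor gene Tnfrsf12a had 84.1 on the knockout array and 80.1 on the wild-type array, a difference of 0.14, and -0.56 with normexp. Tnfrsf19, which encodes TROY, had 52.8 on the knockout array and 59.3 on the wild-type array, a difference of -0.10. Eda2r, a receptor of ectodysplasin A2, was not well above background, at 2.06 on the knockout array and 5.21 on the wild-type array.

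Ligand and receptor of a pair had the same sign in 8 pairs and opposite signs in 11. Of 26 known pairs, 19 had both members well above background in both genotypes, and these 19 share genes, 28 in all. With normexp 11 had the same sign and 8 opposite signs, and 9 of the 19 pairs changed between the classes, so the split is not settled. In the processed signal, in 6 pairs both were higher on the knockout array, in 2 both were lower, in 7 the ligand was higher and the receptor lower, and in 4 the ligand was lower and the receptor higher. Both were higher for Ltb and Ltbr (0.34 and 1.01) and for Tnfsf14 and Ltbr (0.78 and 1.01). The BAFF pair Tnfsf13b and Tnfrsf13b was the furthest apart of the 19 in the processed signal, with the receptor 1.83 log2 units below the ligand and a combined error of 0.36. With normexp that gap was 1.02, and Tnf and Tnfrsf1a, 1.70 apart, were furthest. Over all genes normexp gave a median of -0.86 in the signal quartile of Tnf and of 0.32 in that of Tnfrsf1a. Tnfsf10 and Tnfrsf10b differed by -0.72 and -0.11, the receptor within its error, and the receptor turned to 0.03 with normexp.

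**Figure D4:**
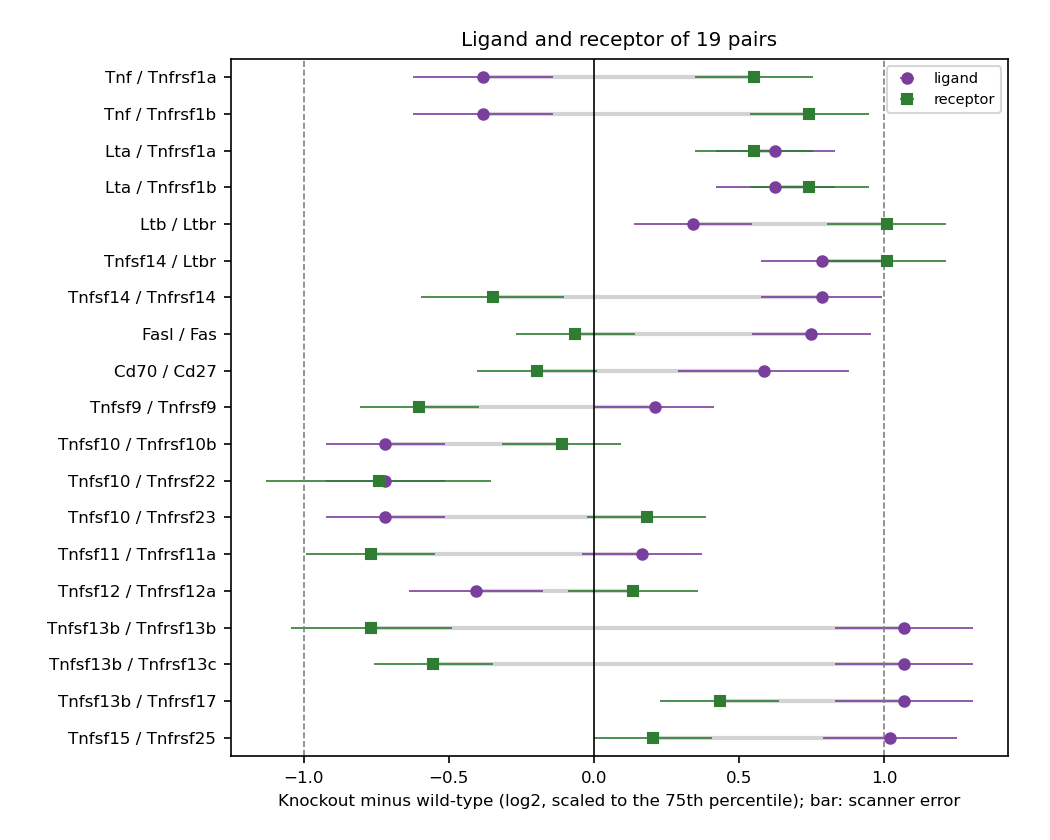
Knockout minus wild-type difference (log2) of ligand (circle) and receptor (square) for the 19 pairs measured on both arrays, with the scanner error as bars and dashed lines at 2-fold. In the pairs of Lta and of Ltb both ligand and receptor lie on the right, Ltb and Ltbr further apart than their combined error. BAFF (Tnfsf13b) and its receptor Tnfrsf17 lie on the right while its receptors Tnfrsf13b and Tnfrsf13c lie on the left. Genes that occur in several pairs are drawn in each.

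Members that lie next to each other in the genome had the same sign in some runs and opposite signs in others. In the GRCm38.p6 gene order of protein-coding genes, 7 runs of adjacent members were found. In the run Ltb, Tnf and Lta on chromosome 17 the differences were 0.34, -0.38 and 0.63. In the other run of chromosome 17, Tnfsf9, Cd70 and Tnfsf14, they were 0.21, 0.58 and 0.78. On chromosome 4 Tnfsf15 had 1.02 and its neighbour Tnfsf8 -0.16, while Tnfrsf4 and Tnfrsf18 had 0.14 and 0.28. On chromosome 7 Tnfrsf26, Tnfrsf22 and Tnfrsf23 had -0.62, -0.74 and 0.18.

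The spread of differences went with signal level. Members fell into all 4 signal quartiles of the genes well above background on both arrays, with 12, 8, 6 and 9 in quartiles 1 to 4. In the dimmest quartile the 12 members had a median of -0.27 and all genes one of -0.18, and 4 of the 12 were above 0. In quartile 3 the 6 members had a median of 0.53, against 0.05 for all genes, and in quartile 4 the 9 members had one of 0.20, against 0.05. The share of genes at least 2-fold higher was 6.27% in quartile 1, 5.19% in quartile 2, 2.75% in quartile 3, where Ltbr lies, and 1.6% in quartile 4. The share at least 2-fold lower was 9.04%, 2.66%, 2.01% and 0.833% in quartiles 1 to 4. Among 13634 probes above background on neither array the median difference was -1.22, close to the values of Eda2r (-1.27) and Tnfrsf8 (-1.18), for which no fold is given.

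**Figure D5:**
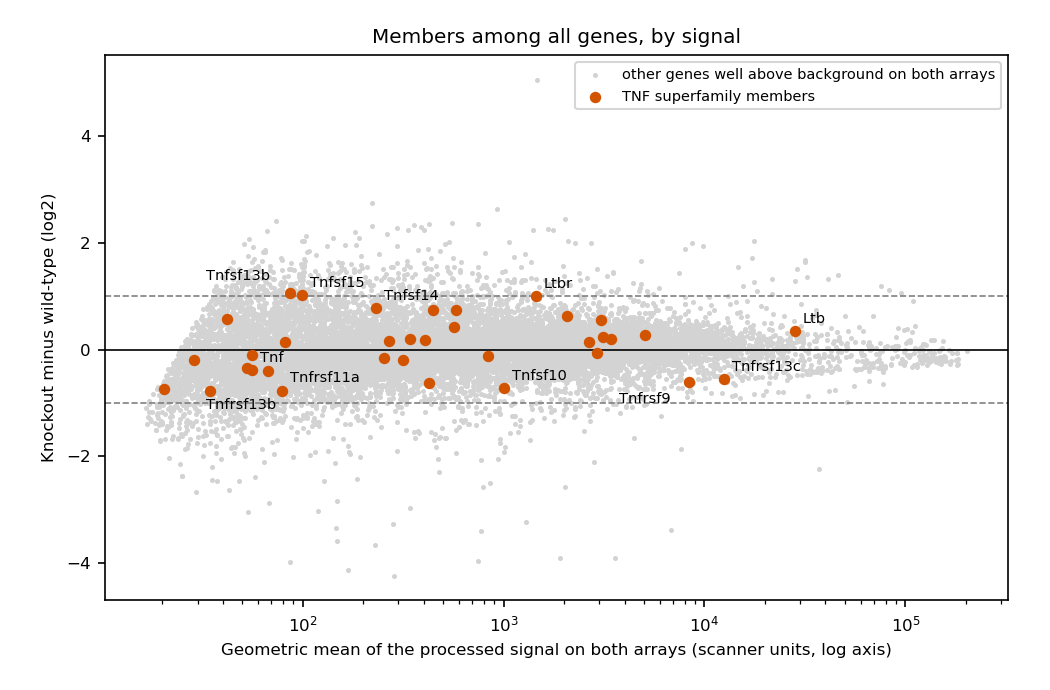
Knockout minus wild-type difference (log2) against the geometric mean of the processed signal (log axis) for the 35 members (orange) and the other genes (grey) well above background on both arrays, with dashed lines at 2-fold. Ltbr lies at the 2-fold line in a range where few genes reach it, and Tnfsf13b and Tnfsf15 lie there among dim genes that spread more widely.

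Genes downstream of the receptors were mostly within 2-fold. The list of 33 adaptors, ubiquitin enzymes and kinases had 32 members well above background on both arrays, with a median of 0.15 (0.11 to 0.34 over the alternatives) against 0.00 for all genes. Of these 21 were above 0 and 11 below, and 13 lay within the scanner error (50.4% of all genes were above 0 and 39.4% within their error). Among the 32, 0 were at least 2-fold higher and 1 was at least 2-fold lower (3.95% and 3.63% of all genes). Cyld, a deubiquitinase that restrains NF-kB, was that one, at 32.8 on the knockout array and 69.5 on the wild-type array, or 2.03-fold lower, which came to -0.83 with centring on the median and so under 2-fold. By size the next was Traf1, an adaptor of TNFR2 and 4-1BB that NF-kB induces, with 6850 on the knockout array and 4460 on the wild-type array, a difference of 0.68 ± 0.20.

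The authors' deposited value table held other values for a pair of members. Against probes of like signal, the knockout value of Tnfrsf25 was lower by 9 log2 units (2.83 where the running median was 11.8) and that of Tnfrsf11a by 4 (2.00 where it was 5.99). The wild-type values of both genes followed the running median. The other members left it by at most 0.001. Thus 2 of 38 members with a single spot departed in the knockout column (5.26%), against 31 of 39012 probes (0.0795%), and 0 of 38 in the wild-type column. Another scanner column stood out at the same spots. The background-subtracted signal of Tnfrsf25 was 1547 on the knockout array, where the processed signal was 3600 and the median pixel intensity 3603, and 3314 on the wild-type array, where the processed signal was 3270. For Tnfrsf11a it was 27.9 on the knockout array, where the processed signal was 58.9, and 100.9 on the wild-type array, where the processed signal was 105. Taken from the table, the differences were -8.83 for Tnfrsf25 and -4.63 for Tnfrsf11a, so both would count as lower.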

How the data were processed

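Mouse gene expression was measured on 1 Agilent 1-colour array per genotype, grouped by the genotype label. Agilent Feature Extraction 11.0.1.1 was used on both arrays, which share a scan time, per the file headers. Per spot the deposited scanner files hold a processed signal, an intensity from which background was subtracted within the array, per the file headers. The deposited value table holds log2 values (median 5.36 in both columns) whose normalization and centring are not given in the sources used here. Control spots and outlier spots were left out, spots of a probe were averaged as log2 values, and each array's 75th percentile over its gene probes was subtracted. Of 39411 probes, 27220 could be named by accession, versions left out, in the RefSeq table of GRCm38.p6. A gene took its brightest probe above background on either array. Called genes were well above background on both arrays and at least 2-fold apart. No p-value was computed. Array number limits the precision. Alternatives used limma 3.58.1 (quantile, loess, normexp with an offset of 50 on median intensities). The call rule was tested on simulated data. Every member is named, and list genes at least 2-fold apart, or the 2 furthest where none is. Traf1, Adam17, Eda, Ngfr, Pecam1, Cdh5, Mcpt8, Elane and S100a9 were added after their values were seen. Pairs, roles and lists were written by hand. Members and lists were chosen with earlier results of these data known.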

Additional observations from a re-analysis of the deposited data

How the results depend on the processing

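With 1 array per genotype no value has a replicate check. No paired analysis was possible because each genotype has 1 array. The 3 higher and 0 lower calls held with centring on the median, quantile normalization, loess, the mean over probes and outlier spots kept. With normexp 1 member was higher and 3 were lower, Tnfsf13b turned to -0.17 and Tnfsf15 to -0.12, and the medians of members and of ligands were both -0.12. Under normexp signal quartile 1 had a median of -0.86 over all genes. The 3 lower members lie in it, and 32.9% of its genes were at least 2-fold lower. The deposited table gave 2 lower, both from departing values. Without a filter on dim probes 4 were higher, Tnfsf4 being added, and 2 were lower, Eda2r and Tnfrsf8, neither above background, where 5.33% of all genes were higher and 20.8% lower. A 1.5-fold threshold gave 7 higher and 6 lower (11.0% and 12.0% of all genes), and a 3-fold threshold gave 0 higher and 0 lower (0.656% and 0.864%). Normexp moved 22 of 35 members by more than their scanner error. Of the 35, 24 kept their sign under every alternative and 11 did not. Those 11 were Cd70, Fas, Tnfrsf10b, Tnfrsf12a, Tnfrsf19, Tnfrsf21, Tnfrsf25, Tnfsf8, Tnfsf11, Tnfsf13b and Tnfsf15. Signal over background limits the 12 members of quartile 1 most.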

Other observations

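Enzymes that release TNF family ligands from the cell surface, or process them, were examined as a list of 6. Of these 5 were well above background on both arrays and all 5 were below 0, with a median of -0.43 (-0.43 to -0.24 over the alternatives) against 0.00 for all genes, and none was 2-fold apart. With normexp 4 of the 5 were below 0, Adam10 turning to 0.04. Furin, a proprotein convertase that cleaves ligands such as BAFF, had 1920 on the knockout array and 3030 on the wild-type array, a difference of -0.59, and -0.30 with normexp. Rhbdf2, which encodes the rhomboid-like protein that carries the TNF sheddase to the surface, had 1830 on the knockout array and 2740 on the wild-type array, a difference of -0.52, and -0.24 with normexp. Adam17, the TNF sheddase itself, had 282 on the knockout array and 309 on the wild-type array, a difference of -0.07 ± 0.21, within its error, which reached 0.12 over the alternatives.

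Relatives of the family under other names were dim. Relt, a TNF receptor superfamily gene, had 46.1 on the knockout array and 92.2 on the wild-type array, a difference of -0.93. Eda, the ectodysplasin ligand, had 51.8 on the knockout array and 36.3 on the wild-type array, a difference of 0.58 that turned to -0.77 with normexp. Ngfr, the neurotrophin receptor, had 68.9 on the knockout array and 53.8 on the wild-type array, a difference of 0.42 that turned to -0.60 with normexp. Edar was above background on neither array.

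Mast cell, basophil and neutrophil markers had a median of 0.29 over 7 genes, 5 of them higher on the knockout array. With normexp the median was 0.03 and 4 were higher. The 7 had sums of 242 times the 75th percentile signal on the knockout array and 227 on the wild-type array. Without S100a9, the brightest of them, the sums were 70.7 on the knockout array and 57.5 on the wild-type array. Cpa3 (1.72) and Fcer1a (1.49) were at least 2-fold higher, Fcer1a coming to 0.03 with normexp. The lower ones were Mcpt8 (-0.80) and Elane (-0.36), at -1.06 and -0.22 with normexp.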
